A study of Mus musculus with 24 samples.

Results

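The 10 genes described here encode enzymes, and regulators of enzymes, that break down the branched-chain amino acids leucine, isoleucine and valine. They were taken by symbol (Bcat2, Bckdha, Bckdhb, Dbt, Bckdk, Ppm1k, Ivd, Mccc1, Mccc2 and Hibch) from a table of raw counts for 12615 genes, and all 10 were present and passed the filter on low counts. RNA from the brown adipose tissue (BAT) of 24 mice was measured with a kit that sequences 1 tag from the 3′ end of a transcript. The study asked how loss of TBLR1 and TBL1, a pair of transcriptional cofactors, changes the response of BAT to cold.

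There were 4 groups of 6 mice, and all mice carried floxed alleles of both cofactor genes and received tamoxifen. Mice labelled BATdKO were positive for Ucp1CreERT2, in which the Ucp1 promoter drives a Cre that tamoxifen activates, so that deletion is meant for brown adipocytes, and Cre- controls were negative for it. By the labels, mice of each genotype spent 4 days at 30°C, near thermoneutrality, or 6 days at 8°C after stepwise cooling, starting 3 weeks after the last tamoxifen injection. The paper differs from the labels on the days in the cold, on sex (the labels describe females) and on the unit of the age at tamoxifen injection (weeks in the paper). All groups shared that age, which is 5 years as labelled. The paper also states that outliers were removed after quality control and gives fewer mice per group for its sequencing data, whereas all 6 were used here. Nothing in the sources used here says which exons the deletion removes or whether the 3′ tag lies in them.

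Branched-chain amino acids enter mitochondria and are first stripped of their amino group by the transaminase BCAT2. The resulting keto acids are decarboxylated by the branched-chain keto acid dehydrogenase, a complex of BCKDHA, BCKDHB, DBT and the shared subunit DLD, which the kinase BCKDK inactivates by phosphorylating BCKDHA and the phosphatase PPM1K reactivates. Separate arms then lead leucine to acetyl-CoA and acetoacetate, and valine and isoleucine by way of propionyl-CoA to succinyl-CoA, and brown fat is known to take up and burn these amino acids in the cold.

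Promoter sequences of Mccc2, Mccc1 and Bckdk are printed first, since these genes encode the kinase of the complex and both subunits of the leucine-arm enzyme with the largest genotype difference among the 10 genes. Each window holds 250 bases before and 50 after a RefSeq transcription start in GRCm38.p6, read 5′ to 3′ along the gene. They lie at chr13:100015590-100015889 on the minus strand for Mccc2, chr3:36000629-36000928 on the minus strand for Mccc1 and chr7:127903823-127904122 on the plus strand for Bckdk.
Mccc2: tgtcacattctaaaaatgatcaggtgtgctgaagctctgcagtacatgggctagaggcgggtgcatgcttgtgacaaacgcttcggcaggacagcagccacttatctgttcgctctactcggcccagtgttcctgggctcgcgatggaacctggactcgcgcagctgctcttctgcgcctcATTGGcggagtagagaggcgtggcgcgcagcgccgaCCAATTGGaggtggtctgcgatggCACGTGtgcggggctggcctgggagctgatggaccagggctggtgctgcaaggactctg
Mccc1: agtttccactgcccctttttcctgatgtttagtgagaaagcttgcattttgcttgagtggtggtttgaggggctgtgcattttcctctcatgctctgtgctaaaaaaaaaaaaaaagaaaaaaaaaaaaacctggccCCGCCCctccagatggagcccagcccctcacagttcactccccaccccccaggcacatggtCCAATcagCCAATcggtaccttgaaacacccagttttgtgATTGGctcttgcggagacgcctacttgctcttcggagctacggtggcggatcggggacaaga
Bckdk: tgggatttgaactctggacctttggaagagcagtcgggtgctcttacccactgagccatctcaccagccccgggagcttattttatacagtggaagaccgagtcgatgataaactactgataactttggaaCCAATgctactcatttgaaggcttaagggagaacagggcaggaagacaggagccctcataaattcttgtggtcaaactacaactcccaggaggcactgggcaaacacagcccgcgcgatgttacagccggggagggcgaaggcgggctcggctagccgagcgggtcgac
Capitals mark matches, on either strand, to 7 motifs that were searched, namely the cyclic AMP response element core TGACG, the CCAAT box CCAAT, the E-box CACGTG, the GC box GGGCGG, the estrogen-related receptor motif AAGGTCA, the NRF1 core GCATGCGC and the ETS site CCGGAAG. The Mccc2 window held 3 CCAAT matches, 2 of them overlapping on opposite strands in 1 palindromic run, and 1 E-box just before the start. Mccc1 held 3 CCAAT matches and 1 GC box, and Bckdk held 1 CCAAT match. Of all 32851 RefSeq windows, CCAAT occurred in 37.4%, the GC box in 35.7%, TGACG in 20.8%, the ETS site in 8.86%, the E-box in 7.15%, AAGGTCA in 4.72% and the NRF1 core in 2.71%. A match is a description of the sequence only. Windows were found for 9 of the 10 genes, with Dbt the exception, and no window of the 9 held AAGGTCA, the NRF1 core or the ETS site.

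Libraries held 0.7 M to 11.528 M counts, with 1 Cre- library at 30°C (m4) at 0.7 M and the rest at 2.739 M or more. Both deleted genes had higher counts under the BATdKO label, in CPM, the count scaled to a common normalized library size. Tbl1xr1, which encodes TBLR1, ranged from 33.7 to 44.3 CPM in the 6 libraries labelled BATdKO at 8°C and from 18.2 to 24.6 CPM in the 6 Cre- libraries, and Tbl1x averaged 53.8 ± 6.75 and 40.7 ± 1.88 CPM (SD, n = 6 each). Groups are therefore named by their labels, and Cre- mice below are mice labelled as negative for the recombinase. Whether the genotype labels were exchanged was not tested, and if they were, each genotype difference below would have the opposite sign. At 30°C, mouse m6 of each genotype stood apart, with Tbl1xr1 at 38.6 CPM in the Cre- library (16.4 to 24.6 in the others) and at 17.0 CPM in the library labelled BATdKO (29.8 to 42.0 in the others). Ucp1, the thermogenic uncoupler, was at 548 CPM in the Cre- m6 library (28.9 to 133 in the others) and at 84.7 CPM in the m6 library labelled BATdKO (217 to 412 in the others). Whether these 2 libraries were exchanged was not tested, and values without both are given where they bear on a call.

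Of the brown adipocyte marker list, 8 of 8 genes were measured, and the list took 0.047 to 0.179% of counts in Cre- mice at 30°C and 0.18 to 0.307% at 8°C, against 0.0835 to 0.153% and 0.197 to 0.269% under the BATdKO label. Hepatocyte markers, which brown adipocytes are not known to make, took 3.00 to 4.70% of counts over all 24 libraries, more than the brown adipocyte list in each, and none of the 10 hepatocyte genes was at 0 throughout a group. Since liver also breaks down branched-chain keto acids, the levels below belong to the RNA as sequenced, and the part of the hepatocyte RNA in them was not tested. The median share was 3.64% in Cre- and 3.74% in libraries labelled BATdKO at 8°C, with overlapping ranges, and 4.30% and 3.96% at 30°C. Skeletal muscle markers, 14 of 17 measured, took 0.000572 to 0.951% in Cre- mice at 30°C, with m3 at 0.951% and m1 at 0.418%, and 0.000734 to 0.156%, 0.00232 to 0.07% and 0.000572 to 0.0152% in Cre- mice at 8°C and in libraries labelled BATdKO at 30°C and 8°C.

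Levels of the 10 genes spanned a wide range. Because the kit reads 1 tag per transcript, CPM was not divided by transcript length. The median over 24 libraries was highest for Ivd at 57.7 CPM, followed by Bckdhb at 51.8, Dbt at 49.1 and Ppm1k at 39.9 CPM. Hibch (25.7 CPM), Mccc1 (17.5 CPM), Bckdk (12.6 CPM), Bcat2 (9.56 CPM) and Mccc2 (6.07 CPM) came next. Each gene's range over libraries overlapped that of its neighbour in this order, except that Bckdha, with a median of 1.71 CPM, lay at 0 to 3.21 CPM, below each Mccc2 value. At 8°C Dbt had the highest median of the 10, with 68.5 CPM in Cre- mice (Ivd 57.9 CPM) and 57.8 CPM under the BATdKO label (Ivd 55.1 CPM). Bckdha rested on 0 to 23 counts per library, and 1171 of its 1899 exon bases overlap B3gnt8 on the other strand, so its values are imprecise. Exons of Bcat2 and Mccc1 also overlap genes on the other strand, over 622 and 613 bases, and the other members overlap none.

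**Figure D1:**
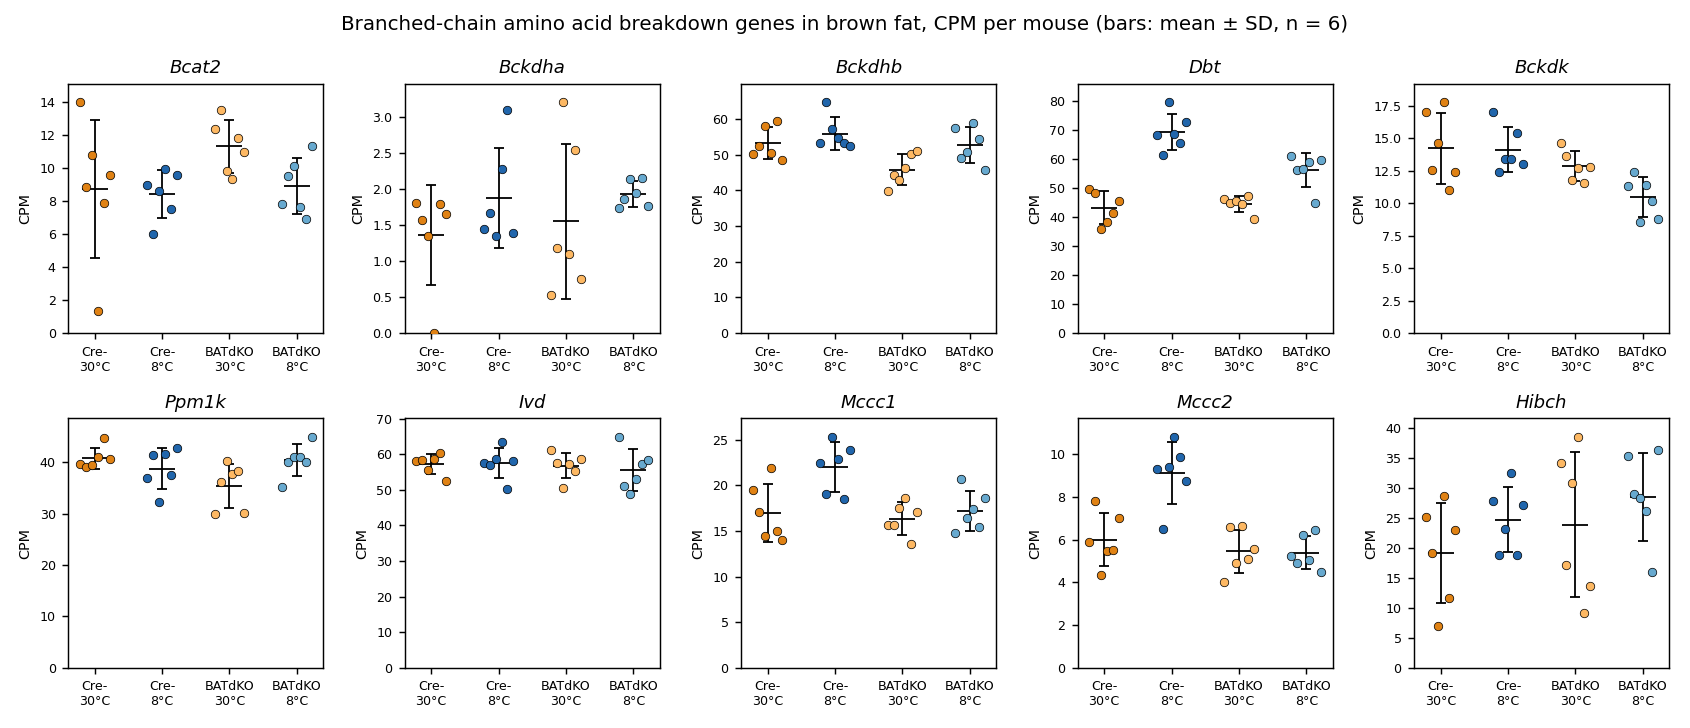
CPM of the 10 genes (vertical axes, from 0) in each of the 24 mice (points) by labelled genotype and temperature, with horizontal bars for the mean and whiskers for the SD of 6 mice. Dbt and Mccc2 are highest in Cre- mice at 8°C, where all 6 Mccc2 values (6.52 to 10.8 CPM) lie above those labelled BATdKO at 8°C (4.50 to 6.47 CPM).

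Genotypes were compared at 8°C first. Of the 10 genes, 3 were lower in libraries labelled BATdKO than in Cre- libraries by edgeR's quasi-likelihood test at an adjusted threshold of 0.1, and none was higher. They were Mccc2 and Dbt, subunits of 2 mitochondrial enzyme complexes, and Bckdk. Over all 12485 genes tested, 1.82% passed in either direction and 1.12% as lower. The median log2 difference of the 10 genes was -0.07, with 4 higher and 6 lower, against -6.08e-05 over all genes tested.

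Mccc2 encodes the beta subunit of methylcrotonyl-CoA carboxylase, the biotin enzyme of leucine breakdown. The gene lies at chr13:99948530-100015639, and its printed promoter was the only one of the 3 with an E-box. In Cre- mice at 8°C Mccc2 was at 9.32, 6.52, 9.40, 10.8, 9.89 and 8.73 CPM in m1 to m6. In mice labelled BATdKO at 8°C it was at 5.23, 4.92, 6.24, 5.03, 6.47 and 4.50 CPM. The 2 groups did not overlap, although the lowest Cre- mouse, m2, came within 0.1 CPM of the highest mouse labelled BATdKO, and 1.95% of all genes likewise did not overlap. The log2 difference was -0.76 ± 0.15 (SE) with an edgeR adjusted p of 0.00761, which is 0.591-fold. Leaving out any 1 of the 24 libraries kept the call.

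Mccc1, for the alpha subunit of the same carboxylase, did not pass. Its level at 8°C had a low, median and high of 18.5, 22.7 and 25.3 CPM in Cre- mice and of 14.8, 16.9 and 20.6 CPM under the BATdKO label, with 4 of 6 of the latter below all Cre- values. The log2 difference was -0.34 ± 0.11 (SE; edgeR adjusted p = 0.162). The ratio of Mccc1 to Mccc2 counts within each library was 0.38 higher on the log2 scale under the BATdKO label (1.66 ± 0.34 against 1.27 ± 0.25, SD, n = 6 each), and an exact two-sided permutation test gave p = 0.0606, or 0.161 adjusted over 12 ratio comparisons.

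Dbt, at chr3:116513070-116549981, encodes the E2 core of the dehydrogenase complex, which carries the acyl group on lipoic acid. At 8°C it was at 68.3, 61.2, 79.6, 68.7, 65.4 and 72.7 CPM in Cre- mice. Under the BATdKO label it was at 61.0, 56.1, 56.7, 58.9, 44.7 and 59.7 CPM. All 6 mice labelled BATdKO lay below all 6 Cre- mice, by a margin of under 1 CPM between the highest and the lowest, and 1 of them (m5) lay well below the rest. The log2 difference was -0.31 ± 0.086 (SE) with an edgeR adjusted p of 0.0862. The catalytic subunits that work beside it did not pass, with Bckdhb at -0.09 ± 0.080 (SE, log2, adjusted p = 0.836) and Bckdha at 0.04 ± 0.31 (adjusted p = 1.00).

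Bckdk, at chr7:127904082-127910221, encodes the kinase that switches the complex off. At 8°C it was at 17.0, 12.4, 13.4, 13.4, 15.4 and 13.0 CPM in Cre- mice and at 11.3, 12.4, 8.55, 11.4, 10.2 and 8.80 CPM under the BATdKO label. The groups met at 12.4 CPM, with 5 of 6 mice labelled BATdKO below all Cre- mice. The log2 difference was -0.43 ± 0.12 (SE; edgeR adjusted p = 0.0853). Ppm1k, for the opposing phosphatase, had a low, median and high of 32.2, 39.5 and 42.9 CPM in Cre- mice and 35.3, 40.6 and 45.0 CPM under the BATdKO label, and did not pass (log2 difference 0.06 ± 0.082, SE; adjusted p = 0.913).

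Kinase and phosphatase were also set against each other within each library, where a ratio of counts does not depend on how libraries are scaled. The log2 ratio of Bckdk to Ppm1k was -1.95 ± 0.29 under the BATdKO label and -1.46 ± 0.27 in Cre- mice at 8°C (SD, n = 6 each), and 4 of 6 ratios of the former lay below all of the latter. The difference of -0.50 had p = 0.0195 in an exact two-sided permutation test, or 0.117 adjusted over the 12 comparisons. The ratio of Bckdk to its substrate Bckdha differed by -0.56 (exact permutation p = 0.0325, adjusted p = 0.13). With all libraries, no ratio passed the adjusted threshold with the pseudocount of 0.5 used here.

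**Figure D2:**
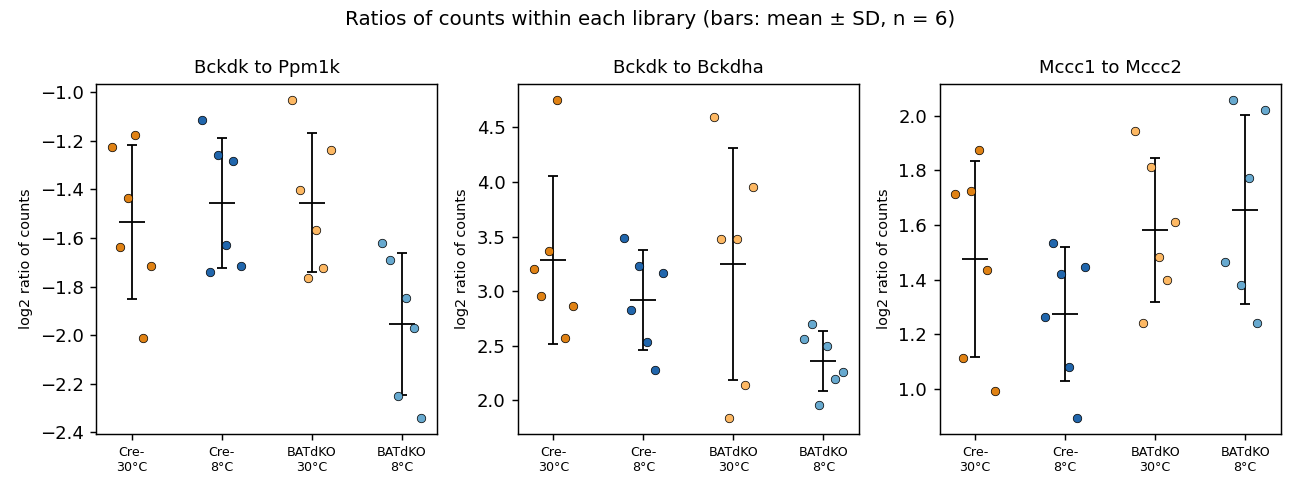
Log2 ratios of raw counts within each library (vertical axes) for Bckdk to Ppm1k, Bckdk to Bckdha and Mccc1 to Mccc2 by group, with 1 point per mouse and bars for mean ± SD of 6. The Bckdk to Ppm1k ratio averages -1.95 in mice labelled BATdKO at 8°C and between -1.53 and -1.45 in the other 3 groups, with overlapping points.

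The remaining members differed little by genotype at 8°C. Bcat2, the transaminase, was at 8.46 ± 1.46 CPM in Cre- mice and 8.91 ± 1.71 CPM under the BATdKO label (log2 difference 0.07 ± 0.18, SE; edgeR adjusted p = 0.967). Ivd, the dehydrogenase that oxidises isovaleryl-CoA from leucine, was at 57.5 ± 4.20 and 55.6 ± 5.83 CPM (log2 difference -0.06 ± 0.071, adjusted p = 0.902). Hibch, the valine-arm hydrolase, varied widely between mice, from 18.9 to 32.5 CPM and from 16.0 to 36.4 CPM (log2 difference 0.18 ± 0.29, adjusted p = 0.938). These groups overlapped, and the wide SE of Hibch leaves differences of this size undetectable.

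The calls at 8°C for Dbt and Bckdk lay close to the threshold. Without any 1 library, the adjusted p of Dbt ran from 0.0435 to 0.222 and that of Bckdk from 0.0523 to 0.235, and the members called numbered 1 to 3. Dbt was not called when any 1 Cre- mouse at 8°C except m2, any mouse labelled BATdKO at 8°C except m1, or m3 labelled BATdKO at 30°C was left out, nor Bckdk when any 1 mouse at 8°C except m2 of either genotype was left out. Fitted levels of the muscle markers were lower for 14 of 14 genes under the BATdKO label at 8°C (0 past the adjusted threshold, 11 at an unadjusted p under 0.05 by edgeR). The share of all genes at that unadjusted level is not given here for this comparison. The part of muscle RNA in these results was not tested. In Cre- mice m1 to m6 at 8°C the muscle shares were 0.0763, 0.00406, 0.000734, 0.0158, 0.156 and 0.0918% of counts. Mccc2 and Dbt of the same mice are listed above in that order. In whole tissue, fewer cells of a type and less RNA per cell cannot be told apart.

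Cold was then examined within each labelled genotype. It stands here for 6 days at 8°C after stepwise cooling against 4 days at 30°C. Temperature, days and cooling cannot be told apart. The comparison in Cre- mice uses the same Cre- libraries at 8°C as the genotype comparison above, so that a high value in those mice enters both. In Cre- mice 3 of the 10 genes were higher at 8°C than at 30°C and none was lower, namely Dbt, Mccc1 and Mccc2, while 9.15% of all genes passed in either direction and 5.57% as higher. The median log2 difference of the 10 genes was 0.15, with 8 higher and 2 lower, against -0.02 over all genes tested.

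Dbt showed the clearest separation by temperature. At 30°C Cre- mice had 49.7, 48.4, 35.8, 38.3, 41.5 and 45.5 CPM, all below the 61.2 to 79.6 CPM at 8°C. The log2 difference was 0.66 ± 0.087 (SE; edgeR adjusted p = 1.12e-05), or 1.58-fold, and Dbt alone among the 10 genes had separate ranges at the 2 temperatures, as 2.93% of all genes did. Without both m6 libraries at 30°C it was 0.67 (adjusted p = 1.21e-05).

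Both carboxylase subunits were higher in the cold. Mccc1 had a low, median and high of 14.0, 16.0 and 21.9 CPM at 30°C in Cre- mice against 18.5, 22.7 and 25.3 CPM at 8°C, a log2 difference of 0.43 ± 0.11 (SE; edgeR adjusted p = 0.0164). Mccc2 was at 5.90, 7.84, 4.32, 5.47, 5.52 and 7.00 CPM at 30°C, and 5 of 6 mice at 8°C were above all of these. Its log2 difference was 0.58 ± 0.15 (SE; edgeR adjusted p = 0.0179). Without both m6 libraries Mccc1 differed by 0.38 (adjusted p = 0.0352) and Mccc2 by 0.62 (adjusted p = 0.015). Without m1 and m3 of the Cre- mice at 30°C, which had the most muscle marker RNA, Mccc2 differed by 0.44 and no longer passed (adjusted p = 0.158), whereas Mccc1 (0.48, adjusted p = 0.0234) and Dbt (0.65, adjusted p = 6.03e-05) did.

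The other members did not pass in Cre- mice. Bckdk was at 14.1 ± 1.74 CPM at 8°C and 14.2 ± 2.72 CPM at 30°C, a fitted log2 difference of 0.03 ± 0.12 (SE; edgeR adjusted p = 0.952). Ppm1k (-0.07), Ivd (0.01) and Bckdhb (0.07) lay within 0.1 of no difference on the log2 scale. Bcat2 (-0.22 ± 0.18, SE), Bckdha (0.24 ± 0.30) and Hibch (0.45 ± 0.30) were measured with larger errors. At 30°C Bcat2 was lowest in m4, the shallow library (1.37 CPM from 1 count), and highest in m1 (14.0 CPM). The sign of its difference was not stable. Without m1 and m3 at 30°C it was 0.03, and the difference in mean log2 CPM over all these mice was 0.18.

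In mice labelled BATdKO only Dbt of the 10 genes was higher at 8°C, while 7.07% of all genes passed in either direction, 3.76% as higher. No member had separate ranges at the 2 temperatures, as 2.99% of all genes did. Dbt was at 46.2, 44.7, 45.5, 44.6, 47.1 and 39.2 CPM at 30°C against 44.7 to 61.0 CPM at 8°C. In 5 of 6 mice at 8°C it lay above all mice at 30°C, m5 being the exception. The log2 difference was 0.33 ± 0.087 (SE; edgeR adjusted p = 0.0245), and 0.29 without both m6 libraries (adjusted p = 0.0671).

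Neither carboxylase subunit passed under the BATdKO label. Mccc2 was at 4.01, 6.58, 4.92, 6.62, 5.08 and 5.56 CPM at 30°C, around the same values as at 8°C (log2 difference -0.04 ± 0.16, SE; edgeR adjusted p = 0.945). Mccc1 was at 16.3 ± 1.78 CPM at 30°C and 17.2 ± 2.16 CPM at 8°C (0.09 ± 0.11, adjusted p = 0.759). Bckdk was lower in 5 of 6 mice at 8°C than in any at 30°C, with a log2 difference of -0.30 ± 0.12 that did not pass (adjusted p = 0.182). The ratio of Bckdk to Ppm1k differed by -0.50 between temperatures (exact permutation p = 0.0173, adjusted p = 0.117). Bcat2 (-0.34), Bckdhb (0.20), Ppm1k (0.20) and Bckdha (0.43) did not pass either. Library numbers run in 1 block for 30°C and another for 8°C, so any effect of such a block and of temperature cannot be told apart.

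**Figure D3:**
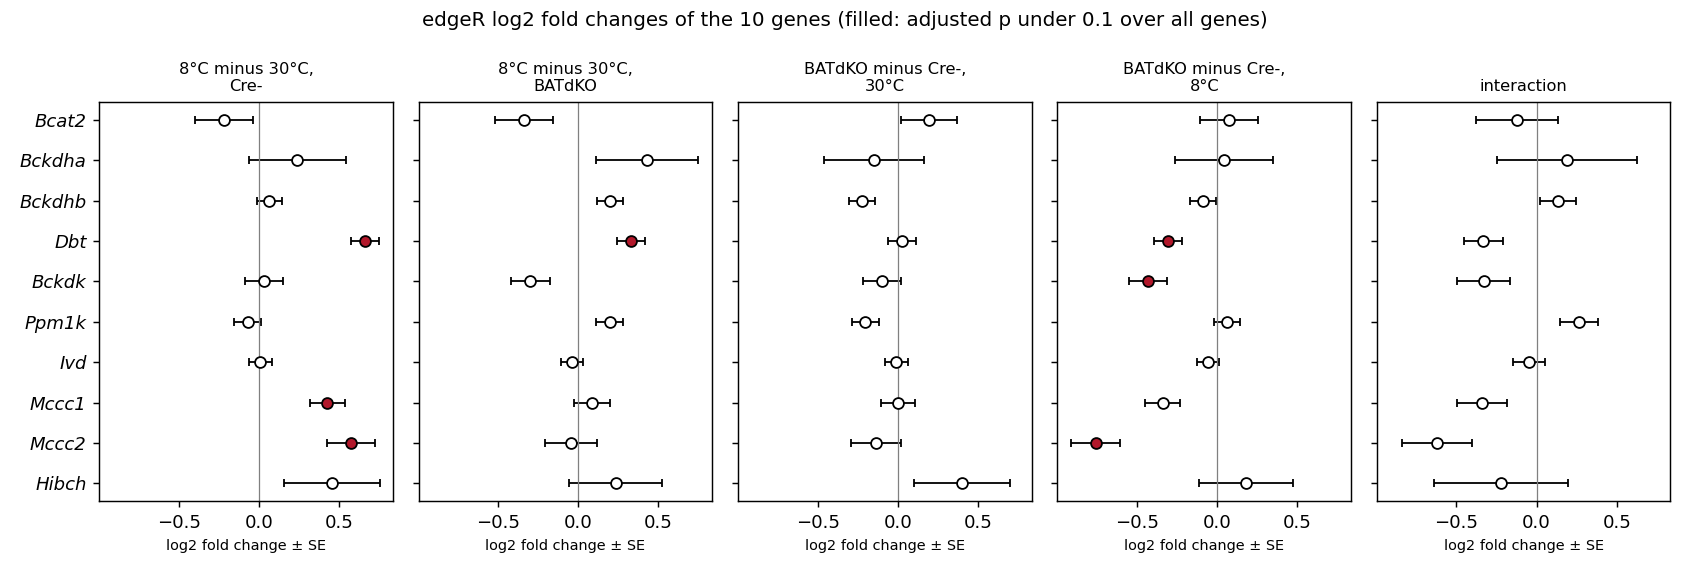
edgeR log2 fold changes (horizontal axes, ± SE) of the 10 genes in 5 contrasts, with filled points past the adjusted threshold of 0.1. Filled points are Dbt, Mccc1 and Mccc2 for cold in Cre- mice, Dbt for cold in mice labelled BATdKO, and Dbt, Bckdk and Mccc2 for genotype at 8°C.

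Whether cold acted differently under each label was tested as an interaction. None of the 10 genes passed the adjusted threshold, which 0.0961% of all genes did. At an unadjusted p under 0.05 there were 4 of the 10, against 8.05% of all genes. Mccc2 had an interaction of -0.62 ± 0.22 on the log2 scale (SE; edgeR adjusted p = 0.446), Dbt -0.33 ± 0.12 (adjusted p = 0.485), Mccc1 -0.34 ± 0.16 (adjusted p = 0.583) and Ppm1k 0.26 ± 0.12 (adjusted p = 0.565). The remaining 6 lay between -0.33 (Bckdk, SE 0.17) and 0.19 (Bckdha, SE 0.44). That Mccc1 and Mccc2 passed for cold only in Cre- mice is therefore not shown to be a difference between the genotypes after adjustment.

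At 30°C the genotypes did not differ past the threshold for any of the 10 genes. edgeR called 0% of genes at the adjusted threshold in this comparison and 10.4% (1303 genes) at an unadjusted p under 0.05, and DESeq2 called 90 genes and no member. The 2 members at an unadjusted p under 0.05 were Bckdhb, with 53.2 ± 4.47 CPM in Cre- mice and 45.7 ± 4.37 CPM under the BATdKO label (log2 difference -0.22 ± 0.080, SE; edgeR adjusted p = 0.313), and Ppm1k, with 40.8 ± 2.04 and 35.4 ± 4.34 CPM (-0.20 ± 0.083, adjusted p = 0.375). Without both m6 libraries 500 genes passed, among them Bckdhb alone of the 10 (-0.29, adjusted p = 0.075). Mccc2 differed by -0.14 ± 0.16 and Dbt by 0.03 ± 0.088 on the log2 scale at 30°C, and the remaining 6 members lay between -0.15 (Bckdha) and 0.40 (Hibch) with SEs of up to 0.31.

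As a check on single genes, log2 CPM was also compared by exact two-sided permutation tests that enumerated each way to split 12 mice into 6 and 6, for which the smallest possible p is 0.00216. Dbt and Mccc2 between genotypes at 8°C and Dbt with cold in Cre- mice reached it (adjusted p = 0.0289 over 40 comparisons). Groups that do not overlap give this smallest p by construction, so for Dbt and Mccc2 it restates the separate ranges given above. Bckdk between genotypes at 8°C had an adjusted p of 0.0433 in the same exact test. With the same adjustment 4 more fell under 0.1 by exact permutation that edgeR did not call over all genes. Between genotypes they were Ppm1k (0.0495) and Bckdhb (0.0787) at 30°C and Mccc1 (0.0577) at 8°C. The last was Bckdk with cold under the BATdKO label (0.0541). This adjustment covers only the chosen members, and the share of all genes passing the same permutation test is not given here. For genotype at 30°C, 10.4% of all genes had an unadjusted p under 0.05 by edgeR and 0% were called. These 4 are therefore not counted as further calls.

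The wider pathway was described by 27 further genes, of which 24 were in the table, while Bcat1, Slc7a5 and Slc7a8 are not analysed here. In Cre- mice 7 of the 24 were higher in the cold and none lower, in mice labelled BATdKO 6 were higher and none lower, and at 8°C 1 was lower by genotype and none higher, where the shares over all genes were 5.57%, 3.76% and 1.12%. No gene of the list passed for genotype at 30°C or for the interaction. The median log2 difference was 0.20 with cold in either genotype and -0.07 with genotype at 8°C.

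Propionyl-CoA genes, which carry valine and isoleucine carbon to succinyl-CoA, held 3 of the 7 calls in Cre- mice and 4 of the 6 under the BATdKO label. Pcca, the alpha subunit of propionyl-CoA carboxylase, was at 14.2, 18.1 and 27.1 CPM (low, median and high) at 30°C and 27.9, 37.1 and 51.6 CPM at 8°C in Cre- mice, and did not overlap, as 2.93% of all genes did not. It was higher in the cold by 0.93 ± 0.16 (SE, log2; edgeR adjusted p = 0.000295) in Cre- mice and by 0.82 ± 0.16 (adjusted p = 0.00209) under the BATdKO label. Mcee, the methylmalonyl-CoA epimerase, was higher by 0.71 ± 0.12 (adjusted p = 0.000283) and 0.66 ± 0.12 (adjusted p = 0.000951). Mut, the mutase of the last step, was higher by 0.30 ± 0.098 (adjusted p = 0.065) and 0.33 ± 0.098 (adjusted p = 0.0479), and Mmaa, which serves its cobalamin cofactor, was higher under the BATdKO label (0.65 ± 0.15, adjusted p = 0.0078) and at 0.37 ± 0.15 in Cre- mice (adjusted p = 0.146), where it passed without both m6 libraries (0.55, adjusted p = 0.00534) and without the Cre- one alone. Pccb and Mmab, also of this group, did not pass for cold. In Cre- mice they differed by 0.21 ± 0.11 and 0.17 ± 0.11 (edgeR adjusted p = 0.328 and 0.468). Under the BATdKO label they differed by 0.13 ± 0.11 and 0.12 ± 0.11 (adjusted p = 0.612 and 0.640).

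Pccb, the beta subunit of that carboxylase, was the 1 gene of the list lower by genotype at 8°C. It was at 93.2, 76.1, 91.5, 85.5, 80.8 and 90.7 CPM in Cre- mice and at 74.5, 59.6, 66.8, 64.0, 65.7 and 62.0 CPM under the BATdKO label, with no overlap. The ranges of 1.95% of all genes likewise did not overlap in this comparison. The log2 difference was -0.40 ± 0.11 (SE; edgeR adjusted p = 0.0755). As with Mccc2, the subunit that passed was the beta subunit of a biotin carboxylase, but Pcca (-0.30 ± 0.15, adjusted p = 0.578) and Mccc1 differed in the same direction without passing. The call for Pccb was lost in 9 of the 24 fits that left out 1 library, with its adjusted p between 0.0134 and 0.169.

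Transporters and the shared subunit were next compared by temperature. Slc3a2, the heavy chain that plasma-membrane amino acid transporters need, was higher at 8°C by 1.09 ± 0.22 (SE, log2; edgeR adjusted p = 0.00248) in Cre- mice and by 0.67 ± 0.22 (adjusted p = 0.0872) under the BATdKO label. Slc43a2, a large neutral amino acid transporter, was higher by 0.80 ± 0.11 (adjusted p = 2.25e-05) and 0.39 ± 0.11 (adjusted p = 0.0379). Slc43a1, also on the transporter list, went the other way without passing, on 1 to 32 counts per library. It differed by -0.13 ± 0.24 (adjusted p = 0.854) in Cre- mice and by -0.68 ± 0.26 (adjusted p = 0.152) under the BATdKO label. Slc25a44, the mitochondrial carrier of branched-chain amino acids, was at 62.1 ± 5.28 and 69.5 ± 6.51 CPM at 30°C and 8°C in Cre- mice (0.15 ± 0.077, adjusted p = 0.291) and did not differ by genotype at 8°C beyond its error (0.00 ± 0.076). With cold under the BATdKO label Slc25a44 differed by 0.18 ± 0.076 (edgeR adjusted p = 0.211). Dld, the E3 subunit that the complex shares with other dehydrogenases, was higher in the cold in Cre- mice (0.70 ± 0.19, adjusted p = 0.0228) and did not pass under the BATdKO label (0.27 ± 0.19, adjusted p = 0.498). Its interaction was -0.43 ± 0.26 (SE, log2; edgeR adjusted p = 0.696), so a difference between the genotypes is not shown. Acat1, the thiolase that ends the leucine and isoleucine arms, was higher in Cre- mice by 0.38 ± 0.11 (adjusted p = 0.0279), and Klf15, a transcription factor known to regulate these genes, was at 0.33 ± 0.14 (adjusted p = 0.18). Under the BATdKO label Acat1 differed with cold by 0.27 ± 0.11 (edgeR adjusted p = 0.174) and Klf15 by 0.29 ± 0.14 (adjusted p = 0.298), in the same direction without passing.

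**Figure D4:**
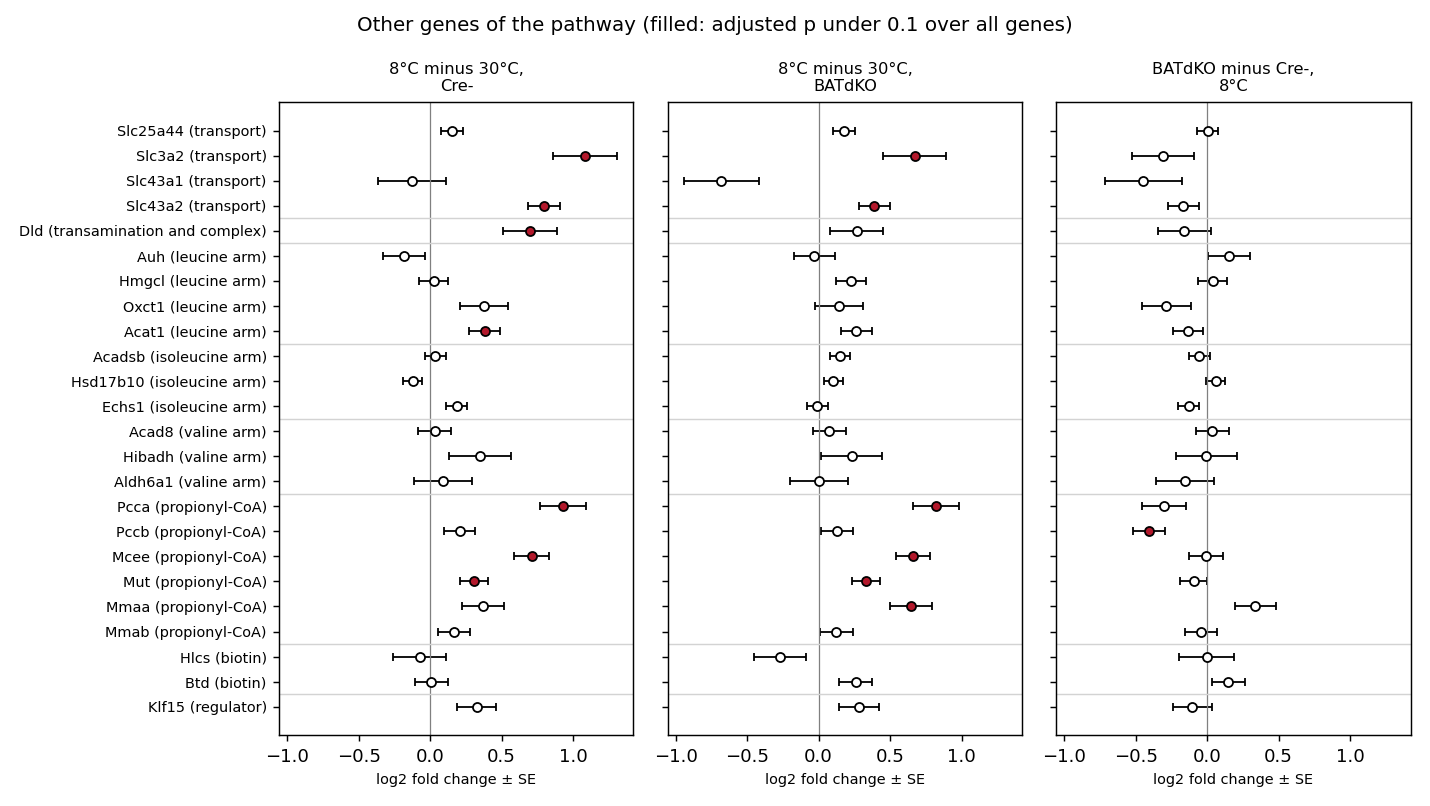
edgeR log2 fold changes (horizontal axes, ± SE) of the 24 other pathway genes for cold in Cre- mice, cold in mice labelled BATdKO and genotype at 8°C, grouped by role, with filled points past the adjusted threshold of 0.1. There are 7 filled points for cold in Cre- mice, 6 for cold under the BATdKO label and 1, Pccb, for genotype.

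These wider calls were unequally stable. Without m1 and m3 of the Cre- mice at 30°C, Dld (log2 difference 0.56, edgeR adjusted p = 0.117), Acat1 (0.31, adjusted p = 0.164) and Mut (0.29, adjusted p = 0.199) no longer passed for cold in Cre- mice, in a fit with fewer mice. Without both m6 libraries, Mut (0.27, adjusted p = 0.118) and Slc3a2 (0.49, adjusted p = 0.103) no longer passed for cold under the BATdKO label, and Slc3a2 was also lost with robust dispersion (adjusted p = 0.142) and with only the 2 groups (adjusted p = 0.116). In the 24 fits that left out 1 library, Slc3a2 (10 fits, adjusted p between 0.0533 and 0.195), Mut (4 fits, up to 0.126) and Slc43a2 (2 fits, up to 0.112) were lost under the BATdKO label, and Mut (6 fits, up to 0.188) and Acat1 (1 fit, 0.105) in Cre- mice. The libraries concerned were m2, m5 and m6 at 30°C and m6 at 8°C for Mut and m2 and m3 at 8°C for Slc43a2 under the BATdKO label, and, in Cre- mice, m2, m3 and m5 at 30°C and m3, m4 and m6 at 8°C for Mut and m4 at 8°C for Acat1.

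Across all 24 libraries, the genes whose log2 CPM followed the mean of the 10 standardized members most closely, among 6104 genes with a mean of at least 10 CPM, were Gja1 (Pearson r = 0.88), Taldo1 (0.86), S100a13 (0.84), Pcca (0.83) and Aacs (0.81). Between members, r was highest for Dbt and Mccc1 (0.63) and lowest for Bckdha and Bckdk (-0.46). These r values describe libraries that share groups and depth.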

How the data were processed

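Forward reads were trimmed by the authors and mapped with STAR (GRCm38), and the raw counts they deposited, made with Rsubread, cover 12615 genes by Ensembl identifier and are not normalized. The annotation release, strand setting and rule for leaving out low genes are not given in the sources used here. The submitters' processing notes name DESeq2.

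Columns were matched to samples by the library name in the labels, and m1 to m6 follow the mouse numbers within a group. Nothing pairs mice between groups. Tests used edgeR 4.0.16 and limma 3.58.1 in R 4.3.3: TMM library sizes, filterByExpr (130 genes removed, 12485 tested), quasi-likelihood fits of 1 mean per group, and Benjamini-Hochberg adjustment over all tested genes at 0.1, the paper's threshold. SEs are the log2 difference over the square root of F. CPM is the count per normalized library size, scaled to a total of 10 to the power of 6, and M in depths is the same number of counts. Ratios added 0.5 to both counts. log2 CPM in the permutation tests used a prior count of 2. Permutation tests used scipy 1.17.1. Positions are from GENCODE for GRCm38, and the promoter windows from RefSeq.

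Alternatives were DESeq2 1.42.0, RLE normalization, no filter or a mean count of at least 10, robust dispersion, only the 2 groups compared, other pseudocounts, and leaving out each library, the library with the lowest total, and, chosen after seeing the data, both m6 libraries at 30°C or Cre- m1 and m3 at 30°C. On simulated counts for the genotype comparison at 8°C over 12485 genes, edgeR and DESeq2 each called 169 of 200 genes changed by a log2 fold of 1, with 0 of wrong sign, and edgeR 27 and DESeq2 29 unchanged genes. Smaller changes were not simulated. The 169 therefore do not measure detection at the sizes of the members called at 8°C (Dbt -0.31, Bckdk -0.43 and Mccc2 -0.76).

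The 10 members and all lists were chosen with earlier results of these data known. Named genes are the 10 members, both deleted genes, Dld, Slc25a44 and Klf15, each gene of the wider list past the threshold in any contrast, and the 5 genes most like the members' mean. Slc43a1 was added so that each measured transporter is named, and Mmab so that each propionyl-CoA gene is. Lists of markers for macrophages, endothelium, adipocytes in general and adipocyte progenitors were measured, and B cell markers are not analysed here.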

Additional observations from a re-analysis of the deposited data

Results flagged for a closer look

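In 52 groups of values of the 10 genes and their 3 ratios, 5 held a mouse whose gap to its nearest neighbour took more of the group's range than the 95% critical value for 6 values, and chance gives this in about 1 in 20 groups. Dbt was at 44.7 CPM in m5 labelled BATdKO at 8°C, with the others at 56.1 to 61.0 CPM, and at 39.2 CPM in m6 labelled BATdKO at 30°C, with the others at 44.6 to 47.1 CPM. The m6 library is the one whose Tbl1xr1 count also stood apart from its label. Ppm1k was at 44.7 CPM in Cre- m5 at 30°C, with the others at 39.1 to 41.0 CPM. Bckdha was at 0 CPM in Cre- m4 at 30°C, with the others at 1.35 to 1.81 CPM, and the log2 ratio of Bckdk to Bckdha in the same mouse was 4.75, with the others at 2.58 to 3.37. Cre- m4 is the library of 0.7 M counts.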

How the results depend on the processing

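No paired analysis was possible because the labels' mouse numbers pair no mice between groups. DESeq2, RLE normalization, both other filters and robust dispersion each gave 3 members for genotype at 8°C, 3 for cold in Cre-, 1 for cold in BATdKO and 0 for genotype at 30°C and the interaction. Fits of only 2 groups gave 4 members for genotype at 8°C (Mccc1 gained) and 477 genes. DESeq2 called 90 genes for genotype at 30°C and 51 for the interaction, and robust dispersion 21 for the interaction. Without the library with the lowest total, 1 gene passed for genotype at 30°C. Without both m6 libraries, 500 genes and 1 member passed there and 44 genes for the interaction. Without Cre- m1 and m3 at 30°C, genes numbered 353 for genotype at 8°C, 684 for cold in Cre- and 25 for the interaction. Leaving out 1 library gave 138 to 276 genes and 1 to 3 members for genotype at 8°C, 791 to 1343 and 3 for cold in Cre-, 574 to 1069 and 1 for cold in BATdKO, 0 to 369 and 0 for genotype at 30°C, and 7 to 37 and 0 for the interaction.

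With a pseudocount of 2, Bckdk to Ppm1k passed at 8°C (-0.48) and for cold in BATdKO (-0.48), as did Bckdk to Bckdha at 8°C (-0.57), each with an exact permutation adjusted p of 0.0866, and Bckdk to Bckdha at 30°C turned to 0.15. Bckdk to Ppm1k at 30°C turned to -0.00080 without both m6 libraries. Leaving out 1 library, Bckdk to Ppm1k ran from -0.56 to -0.42 (genotype at 8°C), -0.019 to 0.15 (cold in Cre-), -0.017 to 0.15 (genotype at 30°C) and -0.57 to -0.41 (cold in BATdKO), Bckdk to Bckdha from -0.31 to 0.25 (genotype at 30°C) and -1.17 to -0.62 (cold in BATdKO), and Mccc1 to Mccc2 from -0.0056 to 0.16 (cold in BATdKO). In these repeats, Bckdk to Ppm1k passed in 1 of 12 for genotype at 8°C and in 3 of 12 for cold in BATdKO. The lowest exact permutation adjusted p was 0.0779 in each. Bckdk to Bckdha passed in 2 of 12 for cold in BATdKO (lowest 0.0974).

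Signs of log2 differences that did not pass turned as follows. Without both m6 libraries they became -0.0057 for Bckdk and -0.021 for Ivd (cold in Cre-) and -0.059 for Mccc1 (genotype at 30°C). Without Cre- m1 and m3 at 30°C they became 0.030 for Bcat2 (cold in Cre-) and 0.056 for Bckdk (genotype at 30°C). With only 2 groups they became -0.0050 for Mccc1 (genotype at 30°C) and -8.73e-05 for Slc25a44 (genotype at 8°C). Leaving out 1 library, the log2 difference for genotype at 8°C ran from -0.0037 to 0.15 for Bcat2, -0.037 to 0.23 for Bckdha and -0.036 to 0.057 for Slc25a44, for genotype at 30°C from -0.41 to 0.00039 for Bckdha, -0.030 to 0.070 for Dbt, -0.030 to 0.021 for Ivd and -0.037 to 0.071 for Mccc1, for cold in Cre- from -0.032 to 0.12 for Bckdk and -0.022 to 0.045 for Ivd, and for cold in BATdKO from -0.11 to 0.023 for Mccc2. The causes were not tested. Depth limits Bckdha most, with 0 to 23 counts per library.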

Other observations

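Genes of 2 neighbouring mitochondrial pathways were measured alongside as a description, from lists chosen with earlier results known. Of 9 genes of pyruvate dehydrogenase and its regulators, 6 rose with cold in Cre- mice and 3 in mice labelled BATdKO by edgeR at the adjusted threshold of 0.1, with none lower, and 1 was lower by genotype at 8°C, where the shares over all genes were 5.57%, 3.76% and 1.12%. Their median log2 difference was 0.40 with cold in Cre- mice, 0.19 under the BATdKO label and -0.24 with genotype at 8°C. Of 16 tricarboxylic acid cycle genes, 9 rose with cold in Cre- mice and 3 under the BATdKO label, against the same shares over all genes, with none lower, and none passed for genotype at 8°C, where 1 had an unadjusted p under 0.05. Their medians were 0.38, 0.36 and -0.10. The 10 branched-chain amino acid genes had medians of 0.15, 0.14 and -0.07 in the same comparisons.

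Of the other marker lists, macrophage genes took 0.0182 to 0.0312% of counts over all 24 libraries, endothelial genes 0.013 to 0.0196%, adipocyte progenitor genes 0.0107 to 0.0295% and general adipocyte genes 0.0738 to 0.41%. Of 9 macrophage genes 0 passed for cold in either genotype, with 0 and 1 at an unadjusted p under 0.05 by edgeR in Cre- mice and in mice labelled BATdKO, and of 5 endothelial genes 3 and 2 were higher in the cold. With cold, 1 of 6 general adipocyte genes and 1 of 7 progenitor genes were lower in each genotype, and at 8°C 1 general adipocyte gene was higher and 1 of 8 brown adipocyte genes lower under the BATdKO label. Of the brown adipocyte genes 5 were higher with cold in each genotype, and 3 of 14 muscle genes were lower with cold in Cre- mice. The median muscle share in Cre- mice went the other way, from 0.0254% at 30°C to 0.0461% at 8°C. At 30°C m3 and m1 held 0.951% and 0.418%. Over all genes tested, 5.57% passed as higher with cold in Cre- mice and 3.76% under the BATdKO label. In either direction 9.15% and 7.07% passed. For genotype at 8°C 1.82% passed in either direction and 1.12% as lower.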
